A study of Arabidopsis thaliana with 24 samples.

Results

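Transcripts of 10 Arabidopsis thaliana chaperone genes were followed in whole seedlings: 5 cytosolic members of the HSP70 family, 3 cytosolic members of the HSP90 family, and the HSP100 disaggregases HSP101 and CLPB3. They were taken by locus identifier from a deposited table of 32833 genes, and all 10 passed the filter on low counts that 21428 genes passed. The groups were uap1-2 seedlings kept 24 h at 4 °C and uap1-2 controls without cold, uap1-1 seedlings in the cold and without it, and wild-type (WT) Col-0 seedlings in the cold and without it, with 4 libraries in each of the 6 groups. Both mutants are, per the labels, lines homozygous for a T-DNA insertion in the Col-0 background, so every group shares that background. All seedlings grew on MS medium. The labels give an age of 12 days at harvest in one place and seedlings of 10 days in another. The series title names UAP1 a splicing factor with a part in cold stress responses. Since the table names none of its genes UAP1, the level of the mutated gene was not checked.

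HSP70 proteins bind short hydrophobic stretches of unfolded or newly made proteins and release them through cycles of ATP hydrolysis that J-domain proteins start and nucleotide exchange factors end. HSP90 takes over part-folded clients, among them signalling kinases and receptors, from HSP70 through a bridging co-chaperone, and HSP100 rings pull proteins out of aggregates together with HSP70. In plants these genes are best known from heat, where heat shock factors bind heat shock elements, repeats of the unit GAA and its complement TTC, in their promoters; many also respond to cold.

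The 5 HSP70 genes code for closely similar proteins. HSC70-1 (AT5G02500, chromosome 5, 553745 to 556623, minus strand), HSC70-2 (AT5G02490, chromosome 5, 550035 to 552827, minus strand) and HSC70-3 (AT3G09440, chromosome 3, 2902355 to 2905947, minus strand) are cognate HSP70s, the housekeeping forms of the cytosol and nucleus. HSP70-4 (AT3G12580, chromosome 3, 3991117 to 3993886, minus strand) and HSP70-5 (AT1G16030, chromosome 1, 5501966 to 5504535, minus strand), also called Hsp70b, are known as heat-inducible forms. The predicted proteins of these 5 genes have 646 to 653 residues and share 82.9% to 94.2% of aligned residues. HSP90.1 (AT5G52640, chromosome 5, 21352557 to 21355147, plus strand) is the strongly heat-inducible HSP90, and HSP90.2 (AT5G56030, chromosome 5, 22686473 to 22689671, plus strand) and HSP90.3 (AT5G56010, chromosome 5, 22681238 to 22684252, plus strand) are constitutive forms. HSP101 (AT1G74310, chromosome 1, 27936508 to 27940369, minus strand) is the cytosolic disaggregase required for acquired heat tolerance, and CLPB3 (AT5G15450, chromosome 5, 5014212 to 5018347, minus strand) is its chloroplast relative, with 57.6% of aligned residues the same. Positions are on TAIR10, as deposited. The table lists HSP70-4, HSC70-2 and HSC70-1 under the symbols MED37C, MED37D and MED37E, HSP90.2 as HSP81-2 and HSP101 as CLPB1.

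Heat shock elements were read from the reference genome in the 500 bases before each annotated start codon, a window of 5′ UTR and upstream bases in parts that differ by gene. For HSP101 the window lay wholly within the annotated gene, and for HSP90.2 mostly so. It therefore held few or no bases upstream of the gene starts of these genes. An element of 3 alternating units, GAANNTTCNNGAA or TTCNNGAANNTTC on either strand, lay in front of 5 of the 10 genes and of 1.36% of the 20578 tested genes that had such a window. The matches are shown because this was the one motif searched that stood before 5 of these genes and was rare before others. The 5 are 4 HSP70 genes, which code for closely similar proteins, and HSP90.1, so they are not 5 separate observations. Capitals mark the 13 matched letters and lower case the flanking bases, 5′ to 3′ on the strand named:
HSP70-4, chr3:3993846-3993874, minus strand: ttactcgtGAACGTTCTCGAAagctcttt
HSC70-1, chr5:556554-556582, minus strand: caaccatcGAACATTCTCGAAacatttta
HSC70-2, chr5:552686-552714, minus strand: taattacaGAACATTCTGGAAactcaagt
HSC70-3, chr3:2905894-2905922, minus strand: atcgaaccGAACATTCTCGAAccttttta
HSC70-3, chr3:2905765-2905793, minus strand: gagccatcGAACCTTCTCGAAactcgagt
HSP90.1, chr5:21352254-21352282, plus strand: aacgaaaaGAACTTTCTGGAAttcgtttg
HSC70-1 and the distal match of HSC70-3 had the same 13 letters. The matches began 141 to 295 bases before the start codon. That of HSP90.1 lay upstream of the annotated gene start, and those of the HSP70 genes lay in an exon annotated as 5′ UTR. Elements of only 2 units, GAANNTTC or TTCNNGAA, stood before 8 of the 10 genes and 34.5% of all tested genes; any 3-unit element also holds them. HSP90.2 and HSP90.3 had no match of either kind in this window. The window was chosen after 250 bases before the annotated gene starts had held a 3-unit match in 0 of the 10 genes and 0.417% of all. The core of the cold-responsive CRT/DRE element, CCGAC, was found before HSP70-4, HSC70-3, HSP70-5 and HSP101, 4 of 10 genes against 25.2% of all. The letters ACGTG, core of the abscisic acid response element, were found before HSC70-1, HSC70-2, HSP90.2, HSP101 and CLPB3, 5 of 10 genes against 35.5% of all. The evening element AAAATATCT was found before 0 of 10, against 4.06% of all. A match is a run of letters and no measurement of binding.

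Library totals ran from 19289385 to 25501547 counts over the 24 libraries. The 10 genes took 0.931% to 1.18% of all counts in uap1-2 cold libraries against 0.296% to 0.327% in uap1-2 control, 1.09% to 1.5% against 0.282% to 0.326% in uap1-1, and 1.22% to 1.78% against 0.311% to 0.371% in WT. Levels below are deposited FPKM, counts scaled to exon length and to the library total, which carry no scaling between libraries beyond the library total. Fold changes are log2 values of cold over control from edgeR's quasi-likelihood fit to all 24 libraries with TMM scaling, and a gene is called where the p adjusted by the Benjamini-Hochberg method over 21428 genes is under 0.05. In the WT replicates numbered 3, the control library was the highest of its group and the cold library the lowest of its group for 8 of the 10 genes, all but HSC70-1 and HSP70-5. Over all tested genes the deviations of these 2 libraries from their group means correlated at -0.53, so they ran opposite beyond the 10 genes too. The share of all genes with this order was not counted. Results in WT are therefore also given without both libraries, a choice made after seeing these values. For the 8 genes this choice took away the highest control and the lowest cold library and raised the WT fold change. The opposite extremes stayed in, such as WT control 1 and WT cold 4 for HSP90.1 (4.30 and 303 FPKM). With 1 library left out at a time, the WT log2 fold change of HSP90.1 was 3.84 to 4.56. The uap1-1 libraries 2, which also correlated at -0.53, were not left out together. With RNA from whole seedlings, fewer cells of a type and less RNA per cell cannot be told apart. As a check of the label, 5 root markers summed to 46.1 to 75.3 CPM in uap1-2 cold against 34.9 to 39.2 CPM in uap1-2 control, 55.7 to 70.2 against 46.8 to 63.4 in uap1-1 and 59.0 to 81.7 against 36.0 to 57.8 in WT. The 5 leaf markers summed to 14800 to 19200 CPM against 20200 to 26700 in uap1-2, 20000 to 32900 against 16600 to 24900 in uap1-1 and 16500 to 25400 against 18400 to 38100 in WT. Cold and control root sums did not overlap in uap1-2 and WT, and leaf sums did not overlap in uap1-2. The 5 seed markers summed to at most 4.12 CPM other than in 1 uap1-2 cold library with 23.0 CPM, and 3 floral markers to at most 4.43 CPM. Seed sums, though low, were higher in cold than in control without overlap in each genotype. They were 1.54 to 23.0 against 0 to 0.348 CPM in uap1-2, 1.95 to 3.20 against 0.143 to 0.417 in uap1-1 and 2.11 to 4.12 against 0.132 to 1.09 in WT. What part these levels have in the results below was not tested.

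After cold, 9 of the 10 genes were higher in each genotype and HSP70-5 was lower. Of all tested genes, 26.5% were called higher and 26% lower in uap1-2, 26.7% and 29.2% in uap1-1, and 25.8% and 28.4% in WT. The median log2 fold change of the 10 genes was 2.61 in uap1-2, 3.03 in uap1-1 and 3.24 in WT, beside -0.01, -0.07 and -0.06 over all tested genes. The 10 were chosen with earlier results of these data known. They were measured in the same libraries and several code for closely similar proteins, so they are not 10 separate observations. HSP70-4 changed most in each genotype. HSC70-1 had the smallest rise in uap1-2 and WT, and CLPB3 in uap1-1. For most genes the cold and control libraries did not overlap, as given below. The share of all tested genes that separate in this way was not counted.

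**Figure D1:**
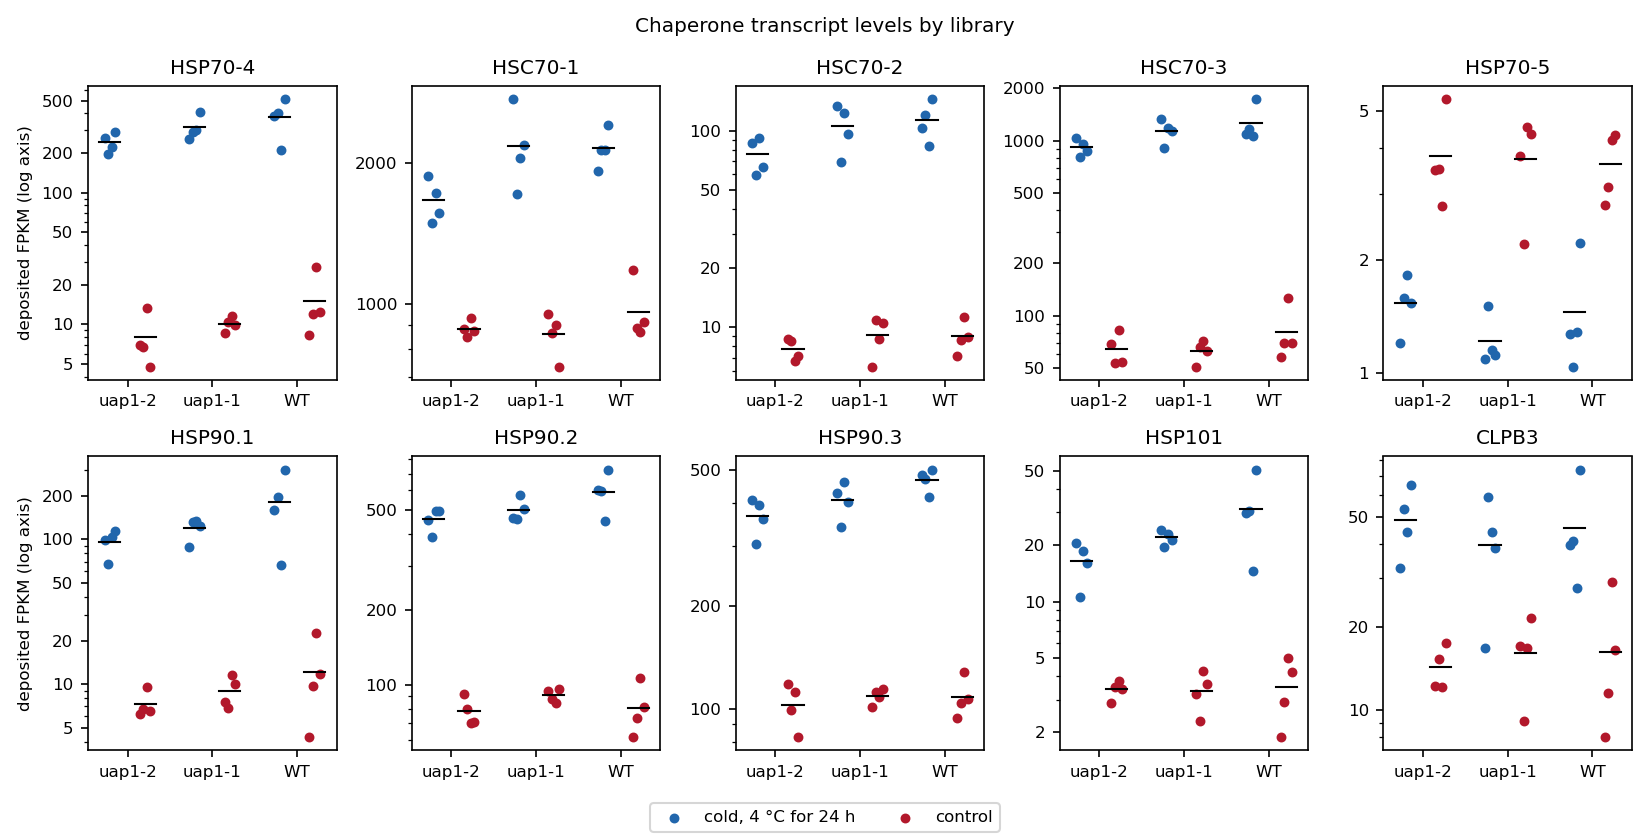
Deposited FPKM of each gene on a log axis, with 1 point per library, a bar at the mean of 4 libraries, and cold (blue) left of control (red) for uap1-2, uap1-1 and WT. Cold points lie above control points in every panel other than HSP70-5, where they lie below, and CLPB3, where the 2 sets overlap in uap1-1 and WT. The share of all tested genes that separate in this way was not counted.

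After cold, HSP70-4 stood at 258, 197, 220.1 and 287 FPKM in uap1-2 libraries 1 to 4, at 257, 289.6, 301 and 409 in uap1-1 and at 385, 401, 209 and 510.3 in WT. Under control conditions, HSP70-4 stood at 6.94, 6.72, 13.4 and 4.79 FPKM in uap1-2, at 8.58, 10.4, 11.5 and 9.89 in uap1-1 and at 8.30, 11.9, 27.5 and 12.4 in WT. The cold libraries lay far above the control libraries in each genotype, and WT library 3 was high among controls and low among cold libraries. The log2 fold change of HSP70-4 was 5.07 (SE 0.37, adjusted p = 1.34e-10) in uap1-2, 5.38 (SE 0.38, adjusted p = 5.19e-11) in uap1-1 and 4.89 (SE 0.37, adjusted p = 1.91e-10) in WT by edgeR's quasi-likelihood test after Benjamini-Hochberg adjustment. Without both WT libraries 3 it was 5.44 in WT.

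HSC70-1 was the most abundant of the 10 transcripts in all 24 libraries. After cold, HSC70-1 stood at 1876, 1491, 1725 and 1563 FPKM in uap1-2 libraries 1 to 4, at 2731, 1718, 2051 and 2185 in uap1-1 and at 1923, 2132, 2129 and 2404 in WT. Under control conditions, HSC70-1 stood at 886, 852, 932 and 875 FPKM in uap1-2, at 951, 868, 901 and 736 in uap1-1 and at 1179.8, 889, 870.1 and 915 in WT. Cold and control libraries did not overlap in any genotype, and WT library 1 was the highest control. HSC70-1 changed by 1.1 (SE 0.21, adjusted p = 0.000106) in uap1-2, 1.76 (SE 0.21, adjusted p = 2.48e-07) in uap1-1 and 1.32 (SE 0.21, adjusted p = 1.16e-05) in WT on the log2 scale by edgeR's quasi-likelihood test after Benjamini-Hochberg adjustment. Without both WT libraries 3 it changed by 1.2 in WT.

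After cold, HSC70-3 stood at 1038, 806, 952 and 874 FPKM in uap1-2 libraries 1 to 4, at 1336, 904, 1183 and 1137 in uap1-1 and at 1087, 1172, 1057 and 1721 in WT. Under control conditions, HSC70-3 stood at 68.9, 53.4, 82.9 and 54.3 FPKM in uap1-2, at 51.2, 66.0, 71.2 and 63.1 in uap1-1 and at 58.0, 69.7, 126 and 69.9 in WT. Here the lowest cold library stood above the highest control library in each genotype, and WT library 3 was again the highest control. HSC70-3 changed by 4.00 (SE 0.25, adjusted p = 1.27e-11) in uap1-2, 4.61 (SE 0.26, adjusted p = 1.74e-12) in uap1-1 and 4.18 (SE 0.26, adjusted p = 6.77e-12) in WT on the log2 scale (edgeR's quasi-likelihood test after Benjamini-Hochberg adjustment). HSC70-2 ranged over 59.3 to 92.0 FPKM in uap1-2 cold against 6.71 to 8.71 in control, 69.3 to 134 against 6.31 to 10.9 in uap1-1 and 83.7 to 144 against 7.14 to 11.3 in WT. Its log2 fold changes were 3.49 in uap1-2, 3.95 in uap1-1 and 3.86 in WT, the highest adjusted p being 8.42e-11 by edgeR's quasi-likelihood test after Benjamini-Hochberg adjustment. Without both WT libraries 3 the WT values were 4.44 for HSC70-3 and 4.02 for HSC70-2.

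HSP70-5 moved the other way and was the scarcest of the 10 in every cold library. After cold, HSP70-5 stood at 1.2, 1.59, 1.83 and 1.54 FPKM in uap1-2 libraries 1 to 4, at 1.09, 1.51, 1.15 and 1.12 in uap1-1 and at 1.27, 1.04, 1.29 and 2.23 in WT. Under control conditions, HSP70-5 stood at 3.49, 3.50, 2.80 and 5.38 FPKM in uap1-2, at 3.80, 2.21, 4.54 and 4.34 in uap1-1 and at 2.81, 3.13, 4.19 and 4.33 in WT. Every cold library lay below every control library of its genotype, in WT by the smallest margin. HSP70-5 had log2 fold changes of -1.1 (SE 0.21, adjusted p = 0.000145) in uap1-2, -1.17 (SE 0.21, adjusted p = 7.44e-05) in uap1-1 and -1.1 (SE 0.21, adjusted p = 0.000127) in WT by edgeR's quasi-likelihood test after Benjamini-Hochberg adjustment. Without both WT libraries 3 it was -1.06 in WT. Its raw counts were 54 to 111 in cold libraries and 121 to 270 in control libraries, so counting error weighs more on it than on the other genes.

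The make-up of the cytosolic HSP70 transcripts differed between conditions. HSC70-1 made 57.4 ± 0.998% of the summed FPKM of the 5 genes in uap1-2 cold libraries and 91.3 ± 1.22% in uap1-2 control (SD, n = 4 each). In uap1-1 its share was 58.0 ± 2.26% in the cold and 90.9 ± 1.62% without it, and in WT 55.5 ± 4.47% and 89.7 ± 4.28%. HSC70-3 took up most of the difference, with 31.6 ± 0.246% against 6.65 ± 1.09% in uap1-2, 30.6 ± 1.2% against 6.68 ± 1.16% in uap1-1 and 32.0 ± 2.67% against 7.69 ± 3.18% in WT. HSP70-4 made 8.32 ± 1.34% against 0.810 ± 0.337% in uap1-2, 8.60 ± 2.14% against 1.07 ± 0.161% in uap1-1 and 9.54 ± 2.36% against 1.44 ± 0.846% in WT. The ranges of these 3 shares in cold and control libraries did not overlap in any genotype. The order in the cold was HSC70-1, HSC70-3, HSP70-4, HSC70-2 and HSP70-5 in each group, while HSP70-4 and HSC70-2 overlapped in every control group.

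**Figure D2:**
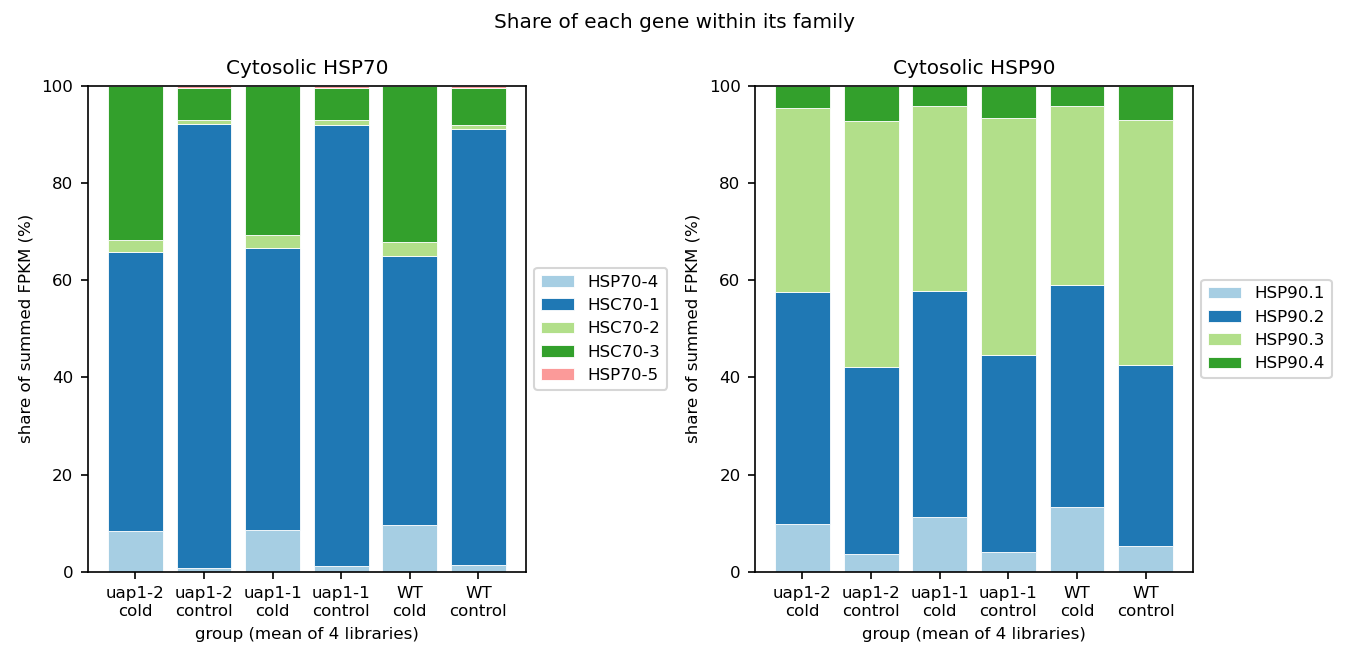
Mean share of each gene in the summed FPKM of the cytosolic HSP70 genes (left) and HSP90 genes (right), as stacked bars for the 6 groups with cold left of control. HSC70-1 fills 55.5% to 58% of the HSP70 bar in the cold groups and 89.7% to 91.3% in the control groups, and HSP90.2 passes HSP90.3 in the cold groups.

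Among the HSP90 genes, the heat-inducible HSP90.1 had the largest fold change. After cold, HSP90.1 stood at 98.4, 67.8, 104 and 115 FPKM in uap1-2 libraries 1 to 4, at 89.0, 132, 134 and 124 in uap1-1 and at 161, 197, 66.7 and 303 in WT. Under control conditions, HSP90.1 stood at 6.21, 6.76, 9.51 and 6.54 FPKM in uap1-2, at 7.49, 6.78, 11.5 and 9.93 in uap1-1 and at 4.30, 9.69, 22.6 and 11.8 in WT. No cold library overlapped the controls of its genotype, but WT libraries spread widely in both conditions, with library 3 lowest in the cold and highest without it. HSP90.1 had log2 fold changes of 3.91 (SE 0.38, adjusted p = 1.3e-08) in uap1-2, 4.18 (SE 0.38, adjusted p = 4.74e-09) in uap1-1 and 4.16 (SE 0.38, adjusted p = 4.94e-09) in WT by edgeR's quasi-likelihood test after Benjamini-Hochberg adjustment. Without both WT libraries 3 it was 4.83 in WT.

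After cold, HSP90.2 stood at 457, 389.7, 495 and 498 FPKM in uap1-2 libraries 1 to 4, at 464, 459, 574 and 506 in uap1-1 and at 602, 594, 453 and 725 in WT. Under control conditions, HSP90.2 stood at 91.7, 79.9, 70.4 and 70.8 FPKM in uap1-2, at 94.3, 88.0, 84.5 and 96.1 in uap1-1 and at 61.8, 73.4, 106 and 81.4 in WT. Cold and control libraries stood well apart, with WT library 4 the highest in the cold. The log2 fold change of HSP90.2 was 2.75 (SE 0.16, adjusted p = 2.14e-12) in uap1-2, 2.89 (SE 0.16, adjusted p = 8.68e-13) in uap1-1 and 3.09 (SE 0.16, adjusted p = 3.33e-13) in WT by edgeR's quasi-likelihood test after Benjamini-Hochberg adjustment. HSP90.3 ranged over 303 to 409 FPKM in uap1-2 cold against 82.6 to 118 in control, 340.3 to 461 against 101 to 114 in uap1-1 and 416 to 500.5 against 93.8 to 128 in WT. Its log2 fold changes were 2.02 in uap1-2, 2.33 in uap1-1 and 2.31 in WT, with a highest adjusted p of 8.69e-10 by edgeR's quasi-likelihood test after Benjamini-Hochberg adjustment. Without both WT libraries 3 the WT values were 3.27 for HSP90.2 and 2.37 for HSP90.3. HSP90.3 was above HSP90.2 in every control library and below it in every cold library. Of the summed FPKM of the 4 cytosolic HSP90 genes (these 3 and HSP90.4), HSP90.2 made 47.7 ± 1.69% in uap1-2 cold and 38.6 ± 2.74% in uap1-2 control, 46.6 ± 1.02% and 40.6 ± 1.95% in uap1-1, and 45.8 ± 0.472% and 37.2 ± 1.46% in WT (SD, n = 4 each). HSP90.1 made 9.90 ± 1.14% and 3.61 ± 0.850% in uap1-2, 11.2 ± 2.01% and 3.99 ± 0.988% in uap1-1, and 13.3 ± 5.13% and 5.26 ± 2.37% in WT, so it remained below HSP90.2 and HSP90.3 even in the cold. HSP90.4 made 4.45% and 7.29% in uap1-2, 4.31% and 6.60% in uap1-1, and 4.17% and 6.95% in WT. In mean share HSP90.1 thus stood above HSP90.4 in the cold groups and below it in the control groups.

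These proteins are near-copies, with 99.1% of aligned residues the same in HSP90.2 and HSP90.3, and the reads of their genes may have been split by the counting. Of the 31-base words of the exons, 28.8% of HSP90.2 and 36% of HSP90.3 occur elsewhere in the genome, as do 30.3% of those of HSP90.4 (AT5G56000, chromosome 5, 22677338 to 22680152, minus strand), another constitutive gene of the same cluster. At 150 bases, the read length per the labels, the shares were 3.66%, 5.61% and 1.79%. Counted as 1 gene, HSP90.2, HSP90.3 and HSP90.4 had a log2 fold change of 2.36 (SE 0.16, adjusted p = 3.99e-11) in uap1-2, 2.59 (SE 0.16, adjusted p = 7.71e-12) in uap1-1 and 2.68 (SE 0.16, adjusted p = 5.64e-12) in WT by edgeR's quasi-likelihood test after Benjamini-Hochberg adjustment. HSP90.1 shared none of its 31-base words with the rest of the genome.

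The disaggregases differed in level and spread. After cold, HSP101 stood at 20.5, 10.6, 18.6 and 16.1 FPKM in uap1-2 libraries 1 to 4, at 24.2, 19.7, 22.9 and 21.4 in uap1-1 and at 29.8, 30.4, 14.6 and 50.6 in WT. Under control conditions, HSP101 stood at 2.89, 3.52, 3.75 and 3.42 FPKM in uap1-2, at 3.21, 2.30, 4.24 and 3.63 in uap1-1 and at 1.89, 2.90, 5.03 and 4.21 in WT. Cold and control libraries did not overlap, and WT cold libraries 3 and 4 were the lowest and highest of their group. For HSP101 the log2 fold change was 2.47 (SE 0.28, adjusted p = 1.25e-07) in uap1-2, 3.17 (SE 0.29, adjusted p = 3.38e-09) in uap1-1 and 3.39 (SE 0.29, adjusted p = 1.34e-09) in WT by edgeR's quasi-likelihood test after Benjamini-Hochberg adjustment. It was 3.77 in WT without both libraries 3. HSP101 overlaps AT1G74300 on the opposite strand, a gene with 56 to 122 counts in cold libraries and 128 to 245 in control libraries, where HSP101 itself had 684 to 3291 and 142 to 336. No source used here states whether counting used the strand, so reads in the overlap cannot be told apart.

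After cold, CLPB3 stood at 32.6, 53.2, 44.0 and 65.2 FPKM in uap1-2 libraries 1 to 4, at 16.8, 59.0, 44.1 and 38.7 in uap1-1 and at 39.4, 40.9, 27.6 and 73.7 in WT. Under control conditions, CLPB3 stood at 12.2, 15.4, 12.2 and 17.5 FPKM in uap1-2, at 17.1, 9.18, 16.8 and 21.6 in uap1-1 and at 8.02, 11.5, 29.1 and 16.5 in WT. Here the groups overlapped in uap1-1, where cold library 1 stood below 3 of the 4 controls, and in WT, where cold library 3 stood below control library 3. In uap1-2 they did not. CLPB3 had log2 fold changes of 1.96 (SE 0.33, adjusted p = 2.78e-05) in uap1-2, 1.72 (SE 0.32, adjusted p = 0.000108) in uap1-1 and 1.72 (SE 0.32, adjusted p = 0.000104) in WT by edgeR's quasi-likelihood test after Benjamini-Hochberg adjustment, and 2.24 in WT without both libraries 3. CLPB3 overlaps EDL1 on the opposite strand, which had 131 to 294 counts in cold libraries and 288 to 437 in control libraries, against 1031 to 4794 and 570 to 1846 for CLPB3. HSC70-3 overlaps AT3G02205 on the same strand, with at most 19 counts in a library, and AT3G09430 on the opposite strand, with at most 52.

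**Figure D3:**
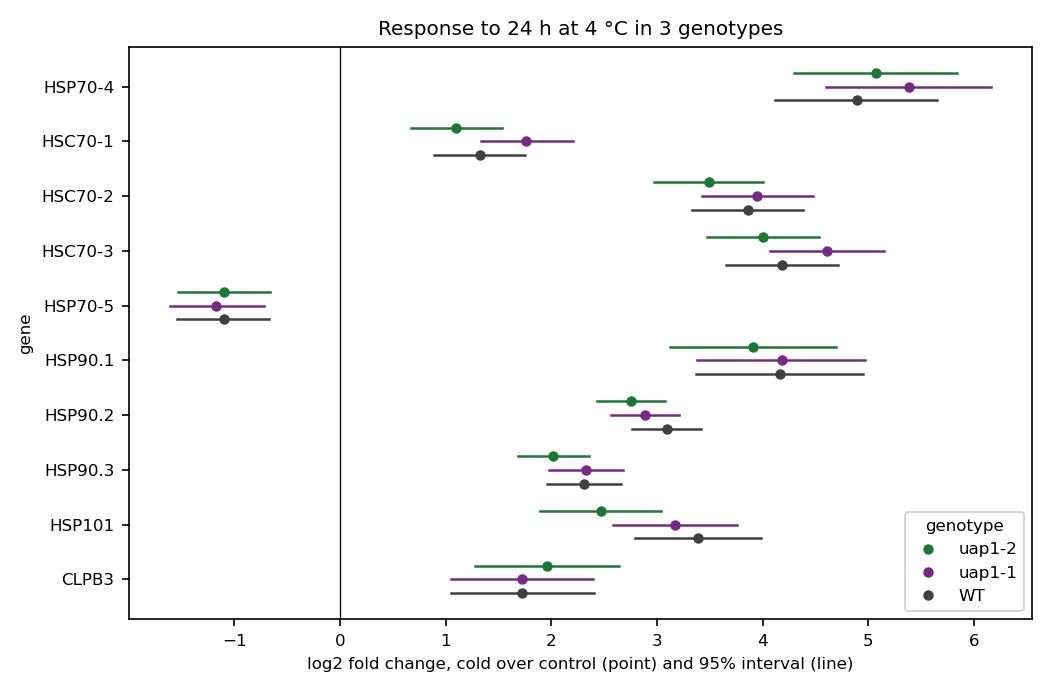
Log2 fold change of cold over control (points) with its 95% interval (lines) for each gene, in uap1-2 (green), uap1-1 (purple) and WT (grey). The 3 intervals of each gene overlap, HSP70-5 lies below 0 in every genotype and HSP70-4 reaches 4.89 to 5.38.

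The next question was whether the mutants differed from WT. Without cold, 0 of the 10 genes were called in uap1-2 against WT, where 0% of all genes were called, and 0 in uap1-1 against WT, where 0.00467% were. At an unadjusted p under 0.05 edgeR's test had 2 of the 10 members and 1152 of all genes in uap1-2, and 2 members and 1961 of all genes in uap1-1; DESeq2 called 0 members in both. HSP70-4 differed by -0.91 on the log2 scale in uap1-2 (95% interval -1.57 to -0.25, adjusted p = 0.865) and by -0.67 in uap1-1 (interval -1.33 to -0.01, adjusted p = 0.534) in edgeR's test, and by -0.54 and -0.31 without both WT libraries 3. With 1 library left out the difference was -1.37 to -0.54 in uap1-2 and -0.81 to -0.31 in uap1-1.

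In the cold, 0 of the 10 genes were called in uap1-2 against WT, with 0% of all genes called, and 0 in uap1-1 against WT, also with 0% of all genes. In uap1-2, 8 of the 10 had a fold change below 0 with an unadjusted p under 0.05, as 455 of 21428 genes did (2.12%). In both directions it was 8 of the 10 and 1014 of all genes. In uap1-1 it was 0 of the 10 and 580 of all genes in both directions. DESeq2 called 0 members in either. The 8 genes were measured in the same libraries and some deviated together within groups, as given below, so they are not 8 separate observations. The median of the 10 was -0.50 in uap1-2 and -0.15 in uap1-1, beside 0.02 and -0.01 over all genes. HSP101 averaged 16.4 ± 4.31 FPKM in uap1-2 cold, 22 ± 1.94 in uap1-1 cold and 31.4 ± 14.8 in WT cold (SD, n = 4 each). Its log2 fold change in uap1-2 over WT was -1.0 (95% interval -1.54 to -0.46, adjusted p = 0.928 by edgeR's quasi-likelihood test after Benjamini-Hochberg adjustment) and its range, 10.6 to 20.5 FPKM, overlapped the 14.6 to 50.6 FPKM of WT. HSP90.1 differed by -0.98 (interval -1.68 to -0.28), HSP70-4 by -0.72 (interval -1.37 to -0.07) and HSC70-2 by -0.65 (interval -1.12 to -0.19), each with adjusted p = 0.928 by the same test. Those of HSP70-5, -0.01 (interval -0.45 to 0.43), and CLPB3, 0.02 (interval -0.63 to 0.67), spanned 0. In FPKM, all uap1-2 cold libraries lay below all WT cold libraries for 3 of the 10 and for 0.742% of all tested genes: HSC70-1 at 1491 to 1876 against 1923 to 2404 FPKM, HSC70-3 at 806 to 1038 against 1057 to 1721 FPKM and HSP90.3 at 303 to 409 against 416 to 500.5 FPKM. In TMM-scaled CPM the same held for 5 of the 10, these 3 with HSC70-2 and HSP90.2, and for 1.8% of all. Leaving out 1 library at a time, HSP101 differed by -1.22 to -0.71 and HSP90.1 by -1.25 to -0.66, the lowest values without WT cold library 3 and the highest without WT cold library 4. No member was called in any of these fits or without both WT libraries 3.

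**Figure D4:**
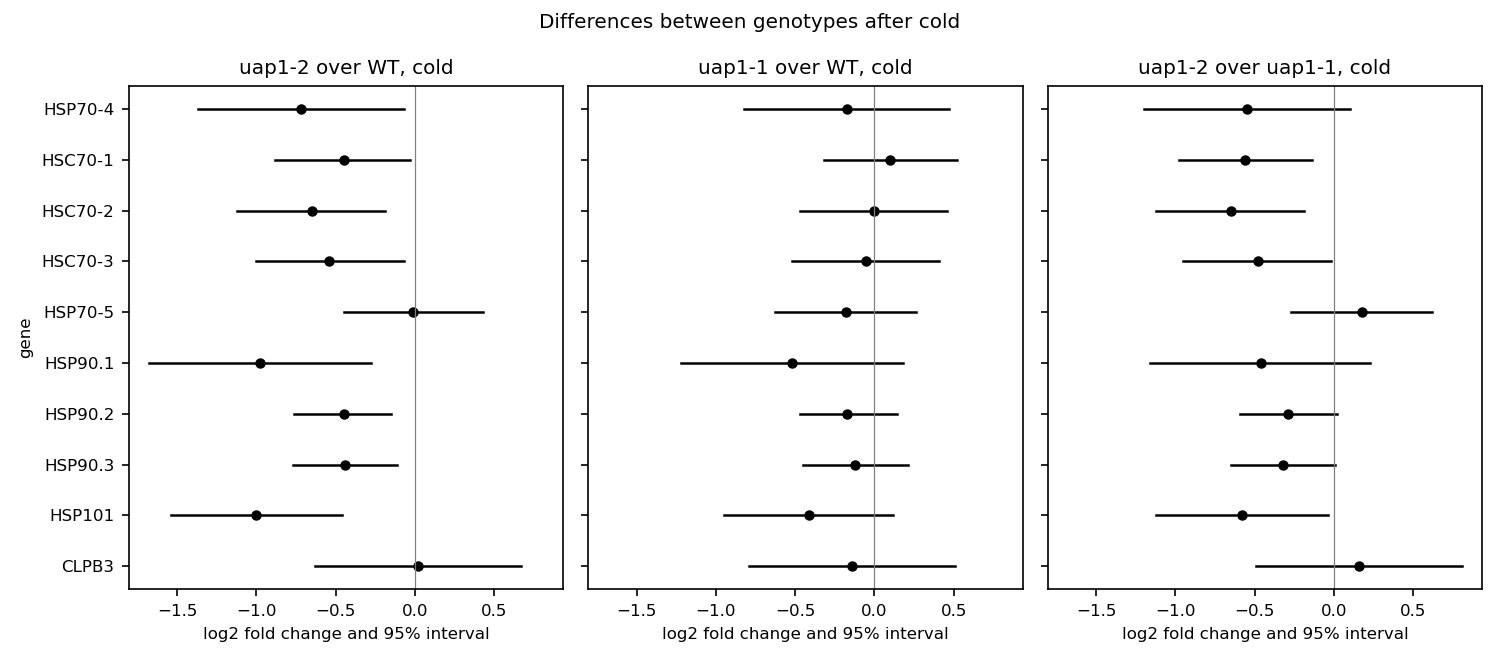
Log2 fold change (points) and 95% interval (lines) in cold libraries for uap1-2 over WT, uap1-1 over WT and uap1-2 over uap1-1, without pairing. In the left panel 8 of 10 intervals lie below 0, and none of the 10 genes is called in any panel.

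The responses themselves did not differ past the threshold. The difference of the cold response from that of WT was called for 0 of the 10 genes in uap1-2 and 0 in uap1-1, with 0% of all genes called in both, by edgeR's quasi-likelihood test after Benjamini-Hochberg adjustment; DESeq2 also called 0 members. At an unadjusted p under 0.05 there was 1 member, HSP101, and 371 of all genes in uap1-2, and 0 members and 1842 of all genes in uap1-1. The response of HSP101 in uap1-2 differed from that in WT by -0.92 on the log2 scale (95% interval -1.70 to -0.14, adjusted p = 1), by -1.3 without both WT libraries 3 and by -1.15 to -0.63 with 1 library left out. For HSP70-4 the difference was 0.19 (interval -0.73 to 1.1) in uap1-2 and 0.50 (interval -0.42 to 1.42) in uap1-1, so a difference of about that size could not be told from none with 4 libraries a group.

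Set against each other, uap1-2 and uap1-1 had 0 of the 10 genes called without cold, where 0.00933% of all genes were, and 0 called in the cold, where 0% of all genes were, by edgeR's quasi-likelihood test after Benjamini-Hochberg adjustment. At an unadjusted p under 0.05 there were 0 members and 1354 of all genes without cold, and 4 members, all lower in value, and 2368 of all genes, 1036 of them lower, in the cold; DESeq2 called 0 members in both. Library numbers were taken to pair the cold samples of the mutants, though the labels do not say what a number stands for. Same-numbered libraries deviated from their group means together, with correlations of 0.50, 0.54, 0.23 and 0.31 over the tested genes. Against WT in the cold, same-numbered libraries of uap1-2 correlated at 0.05, -0.16, 0.08 and 0.08. Those of uap1-1 correlated with WT at 0.02, -0.07, -0.19 and -0.15. The WT cold and control libraries 3 correlated at -0.53, as did the uap1-1 cold and control libraries 2. The pairing was thus picked from these same data, and the paired p-values take it as given. With the number as a block in a fit of the 8 mutant cold libraries, 4 of the 10 genes were lower in uap1-2, where 5.09% of the 19959 genes tested there were called lower. The log2 ratio of uap1-2 to uap1-1 in pairs 1 to 4 was -0.42, -0.96, -0.45 and -0.66 for HSP101, -0.80, -0.29, -0.58 and -0.81 for HSC70-2, -0.18, -0.62, -0.61 and -0.76 for HSP70-4 and -0.04, -1.02, -0.51 and -0.36 for HSP90.1, below 0 in all 4 pairs of each. The paired difference of HSP101 was -0.64 on the log2 scale (SE 0.11, adjusted p = 0.00885), that of HSC70-2 -0.63 (SE 0.12, adjusted p = 0.0113), that of HSP70-4 -0.56 (SE 0.13, adjusted p = 0.0241) and that of HSP90.1 -0.50 (SE 0.14, adjusted p = 0.0464) by the same test. HSC70-1, HSC70-3, HSP90.2 and HSP90.3 also had lower values in uap1-2 in all 4 pairs and were not called. The share of all tested genes that were lower in all 4 pairs was not counted. CLPB3 had lower values in 2 pairs and HSP70-5 in 1. HSP70-4 and HSP90.1 lost their call without pair 3 and without pair 4 (adjusted p = 0.102 and 0.0966 for HSP70-4, 0.128 and 0.102 for HSP90.1), and HSP90.1 also without pair 2 (adjusted p = 0.115), where HSC70-1 and HSC70-3 gained one (adjusted p = 0.0298 and 0.0343). The share of all genes called lower moved too, to 1.95% without pair 1, 6.88% without pair 2, 1.44% without pair 3 and 1.3% without pair 4. With the block in a fit of all 24 libraries, 0 of the 10 were called.

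Within groups, some of the genes deviated together. Over the 24 libraries, after subtraction of group means, log2 CPM of HSP90.1 and HSP101 correlated with Pearson's r = 0.86, HSP70-4 and HSP90.1 with 0.80, HSC70-2 and HSP90.3 with 0.78, HSC70-3 and HSP90.3 with 0.77 and HSP70-4 and HSC70-3 with 0.76, the 5 closest pairs. HSC70-1 was nearly uncorrelated with HSP70-4 (0.03) and HSP101 (-0.01), and it ran against CLPB3 (-0.74). Values of a library share its depth and scaling, so these are descriptions. CLPB3 deviated lowest in uap1-1 cold library 1 (-1.01) and highest in WT control library 3 (0.82). There HSC70-1 deviated by 0.45 and -0.32, and the TMM factors were 0.808 and 1.181. What part such differences between whole libraries have in the correlations was not tested. The gene most like each by this measure, of all tested, was CDC48D for HSP70-4 (0.92), the polyadenylate-binding protein gene PAB2 for HSC70-1 (0.93), the glucose-6-phosphate dehydrogenase gene G6PD5 for HSC70-2 (0.89), AT3G07720 for HSC70-3 (0.85) and AT1G02290 for HSP70-5 (0.89). It was AT4G19880 for HSP90.1 (0.91), LPD2 for HSP90.2 (0.87), the J-domain gene ATJ3 for HSP90.3 (0.91), ILL4 for HSP101 (0.87) and UBP12 for CLPB3 (0.97). HSP90.1 (0.86) and the small heat shock gene HSP17.8 (0.81) came next after ILL4 for HSP101.

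The wider chaperone network was read from 7 lists of related genes, whose median log2 fold changes can be read beside those of all tested genes, -0.01 in uap1-2, -0.07 in uap1-1 and -0.06 in WT. The counts called can be read beside the shares of all tested genes. These were 26.5% called higher and 26% lower in uap1-2, 26.7% and 29.2% in uap1-1, and 25.8% and 28.4% in WT. Of 20 co-chaperone genes, 13 were called higher and 2 lower in uap1-2, 11 and 4 in uap1-1, and 13 and 3 in WT, with medians of 0.81 in uap1-2, 0.61 in uap1-1 and 0.97 in WT. ATJ2 and ATJ3, cytosolic J-domain partners that start the HSP70 cycle, both rose. ATJ2 averaged 209 ± 57.3 FPKM in WT cold libraries, against 28.5 ± 8.97 in WT control libraries, a log2 fold change of 2.90 in uap1-2, 3.06 in uap1-1 and 3.09 in WT. ATJ3 averaged 514 ± 43.4 FPKM in WT cold libraries, against 118 ± 12.0 in WT control libraries, a log2 fold change of 2.10 in uap1-2, 2.58 in uap1-1 and 2.32 in WT. The 3 FES1 genes, relatives of the yeast HSP70 nucleotide exchange factor Fes1, split. FES1A averaged 213 ± 61.5 FPKM in WT cold libraries, against 11.7 ± 4.51 in WT control libraries, a log2 fold change of 3.80 in uap1-2, 4.19 in uap1-1 and 4.42 in WT. FES1B averaged 4.74 ± 0.640 FPKM in WT cold libraries, against 62.1 ± 7.11 in WT control libraries, a log2 fold change of -3.46 in uap1-2, -3.27 in uap1-1 and -3.51 in WT, and FES1C followed it at -1.53 in uap1-2, -1.58 in uap1-1 and -1.65 in WT. BAG6, which codes for a calmodulin-binding BAG-domain protein, fell by 1.04 in WT and was not called in uap1-2 (log2 fold change -0.89, adjusted p = 0.0767 in edgeR's test). Its levels were low and spread widely, at 1.69 ± 1.16 FPKM in WT cold libraries against 4.14 ± 3.02 in WT control libraries.

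Other HSP70 and HSP110 genes had 6 of 12 tested members higher and 1 lower in uap1-2, 7 and 1 in uap1-1, and 6 and 1 in WT (medians 0.52, 0.43 and 0.52 in that order). HSP70-15, an HSP110-type exchange factor, averaged 219 ± 30.0 FPKM in WT cold libraries, against 35.7 ± 7.63 in WT control libraries, a log2 fold change of 2.55 in uap1-2, 3.04 in uap1-1 and 2.82 in WT. The chloroplast cpHSC70-2 (WT log2 fold change 2.38) and the mitochondrial mtHSC70-2 (2.10) rose too. BIP3, the stress-induced HSP70 of the endoplasmic reticulum, was lower in WT (-3.28, SE 1.02, adjusted p = 0.00904) at 0.0925 ± 0.0780 FPKM in WT cold libraries, against 1.1 ± 1.21 in WT control libraries, and was not called in uap1-2 (adjusted p = 0.37) or uap1-1 (adjusted p = 0.0793). Of the 4 other HSP90 genes, HSP90.4, the chloroplast HSP90.5 and the mitochondrial HSP90.6 were called higher in each genotype, with WT log2 fold changes of 2.04, 1.3 and 1.34 (medians of the 4, 0.99 in uap1-2, 0.82 in uap1-1 and 1.32 in WT). HSP90.7, that of the endoplasmic reticulum, was lower in uap1-1 (-1.02, adjusted p = 0.00523) and not called in uap1-2 (-0.25) or WT (-0.47). Among 5 other HSP100 and Clp ATPases, 1 was higher and 1 lower in uap1-2, 2 and 1 in uap1-1, and 1 and 1 in WT (medians 0.12, 0.25 and 0.11). In uap1-2 and WT these counts were near the shares of all genes. The mitochondrial CLPB4 rose by 1.33 and CLPX1, of the mitochondrial protease, fell by 0.74 in WT.

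Small heat shock proteins, which hold unfolded proteins until HSP70 and HSP101 take them up, had 8 of 9 tested genes higher and 1, HSP15.7, lower in each genotype (medians 2.65 in uap1-2, 3.45 in uap1-1 and 2.79 in WT). HSP17.6II averaged 56.1 ± 41.1 FPKM in WT cold libraries, against 0.492 ± 0.319 in WT control libraries, a log2 fold change of 7.18 in uap1-2, 6.98 in uap1-1 and 7.02 in WT. HSP17.6A and HSP17.8 rose by 5.95 and 4.18 in WT. Of 6 chaperonin genes, 3 rose in each genotype and 0 fell (medians 0.40 in uap1-2, 0.63 in uap1-1 and 0.60 in WT), with WT log2 fold changes of 1.9 for HSP60, 1.64 for HSP60-2 and 0.86 for CPN60A. Of 11 tested genes for heat shock factors and their binding protein, 5 rose and 3 fell in uap1-2, 5 and 4 in uap1-1, and 5 and 2 in WT. The counts that fell were near the shares of all genes called lower. Their median was 0.51 in uap1-2, 0.07 in uap1-1, near that of all genes, and 0.45 in WT. HSFA2, the factor that sustains the heat response, averaged 12.0 ± 3.82 FPKM in WT cold libraries, against 2.32 ± 1.36 in WT control libraries, a log2 fold change of 2.54 in uap1-2, 2.98 in uap1-1 and 2.62 in WT. HSFA1E (2.38 in WT) and HSFB2B (1.27) rose as well, while HSFA7A (-1.31) and HSBP, which codes for a protein that binds heat shock factors and limits their action (-0.53), fell.

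**Figure D5:**
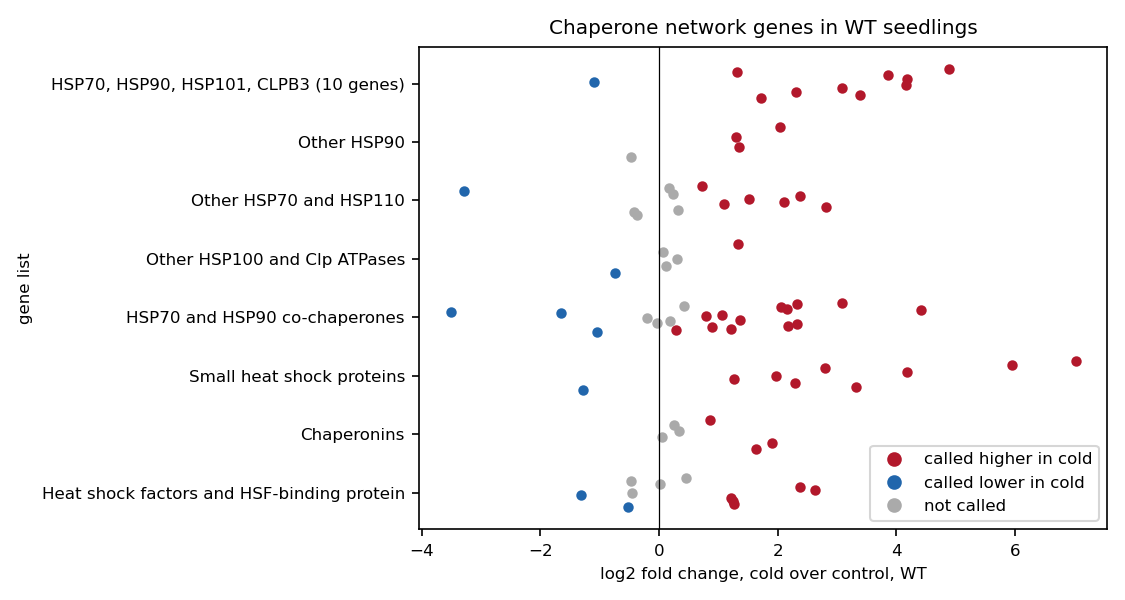
Log2 fold change of cold over control in WT for the 10 genes and for the tested genes of 7 related lists, 1 point per gene, coloured by the call of edgeR's quasi-likelihood test after Benjamini-Hochberg adjustment. The 10 genes lie at -1.1 to 4.89, and the small heat shock genes reach 7.02.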

How the data were processed

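Poly(A) RNA of whole seedlings was sequenced in 24 paired-end libraries, per the labels' protocols. The authors deposited a table of 32833 genes with a whole-number read count and an FPKM value for each gene and library; the deposited FPKM equalled the count over exonic length and library total to within 0.005. The submitters' processing notes name HISAT2 2.2.1, StringTie 1.3.3b, HTSeq 0.6.1, DESeq2 1.26.0 and TAIR10, without roles. Whether counting used the strand is not stated in these sources. All 10 genes have the same position in the RefSeq annotation of TAIR10.1, from whose genome the sequences were read; 99.95% of the 32548 loci found there do.

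Counts were tested with edgeR 4.0.16 in R 4.3.3: filterByExpr (minimum count 10, total 15), TMM scaling, 6 group means over 24 libraries, glmQLFit and glmQLFTest, Benjamini-Hochberg adjustment over 21428 genes. The 4 libraries of each group are independent biological samples per the labels, and every replicate pair differed by more than sampling noise (chi-square per degree of freedom 8.78 to 152). CPM used for markers and correlations are TMM-scaled, with a prior count of 2 in log2 values. The tests of cold against control in WT were checked on simulated data. The comparisons between genotypes, the difference of cold response and the paired fit were not checked in this way. Replicate numbers are shared between groups. They were taken as pairing only where the correlation of deviations was over 0.1 in all 4 pairs, which held in 1 of 9 comparisons, uap1-2 against uap1-1 in the cold. Alternatives were DESeq2 1.42.0, limma 3.58.1 on log2(FPKM + 1) and log2(FPKM + 0.1), other scalings and filters, the replicate block, fits of only the groups compared and leaving out libraries. Members and lists were chosen with earlier results of these data known. Named genes were the 10, up to 3 called genes per direction and list with the smallest adjusted p in WT, and the gene most like each member (3 for HSP101). HSP90.7 was named after its values were seen.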

Additional observations from a re-analysis of the deposited data

Results flagged for a closer look

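In 60 groups of 4 libraries, 3 had a library far from the others by Dixon's test, about as many as the 1 in 20 that chance gives. HSC70-1 stood at 1179.79 FPKM in WT control library 1, with the other 3 at 870 to 915. HSP70-5 stood at 1.51 FPKM in uap1-1 cold library 2, with the others at 1.09 to 1.15. HSP90.1 stood at 9.51 FPKM in uap1-2 control library 3, with the others at 6.21 to 6.76.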

How the results depend on the processing

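In the 3 cold comparisons all 286 member fold changes under other settings and all 240 with a library left out kept their direction and their call. Library totals in place of TMM moved the median of all genes to -0.20 in uap1-2, -0.50 in uap1-1 and -0.27 in WT, and the calls of the 10 stayed. With limma on log2(FPKM + 1) the fold change of HSP101 was 2.42 in uap1-1 and 2.78 in WT. Without WT control 3 and WT cold 3 that of HSP90.1 in WT was 4.83. For uap1-2 against uap1-1 in the cold, the replicate block in a fit of only these groups gave 4 members called against 0 without it, and 1121 genes higher and 1016 lower of 19959; leaving out 1 pair gave 2 to 5 members and 261 to 1377 genes lower. In that fit HSC70-2 (-0.63), HSP101 (-0.64), HSP70-4 (-0.56) and HSP90.1 (-0.50) passed the threshold. The block in a fit of all 24 libraries changed no other call of a member. Leaving out both WT libraries and this paired fit were chosen after seeing the data. Low counts limit HSP70-5 most.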
